A study of Mus musculus with 2 samples.

Results

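The landscape of H3K4me1, histone H3 with 1 methyl group on lysine 4, is described here for melan-a cells, an immortalized line of mouse melanocytes labelled C57BL/6 Ink4a -/-, that is, lacking the cell cycle inhibitor Ink4a. It comprises every row of the deposited H3K4me1 list, 59923 of the 78725 regions and peaks in the series. The other rows belong to 2 lists for the coactivator EP300 in the same line, which serve here only for the outermost coordinates of the chromosomes and for 1 check of empty stretches. Chromatin was immunoprecipitated with an antibody to H3K4me1 from cells with no treatment listed, and the single list stands for 2 replicates, per the labels. The list gives no value for either replicate, so no difference within it has a replicate check and no p-value is given for any comparison. The 19 autosomes, read from the same libraries, are used to show how far a value varies within the list. The sequencing depth behind the list is unknown. Melanocyte identity was not checked, because gene positions in mm9, the build of the files, were not used here.

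H3K4me1 is placed mainly by the methyltransferases KMT2C and KMT2D. It marks enhancers, both those in use and those held ready, and also lies beside promoters, whose own nucleosomes more often carry the trimethylated form. At an active enhancer the mark is typically carried by the nucleosomes on either side of the DNA that transcription factors occupy, so that 1 element can appear as a pair of regions with a gap between them. In melanocytes, as in other cells, the enhancers marked in this way differ from those of other cell types more than promoters do.

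Most H3K4me1 regions were short, and a small number of long ones held a large part of the marked sequence. Lengths ran from 100 bp to 9400 bp with a mean of 644 bp, quartiles at 300 bp and 800 bp, and a 95th percentile of 1700 bp. From 100 bp to 450 bp the distribution was nearly flat, with 3292 to 3943 regions at each 50 bp step and the most at 200 bp. This range held 48.6% of the list (exact Clopper-Pearson 95% interval 48.2% to 48.99%, which covers counting error only). Longer regions were fewer, with 1957 of at least 2000 bp and 182 of at least 4000 bp. The longest 10% of regions, those of about 1300 bp or more, made up 30.3% of the marked sequence, and the 3.27% that reached 2000 bp made up 14.0%.

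**Figure D1:**
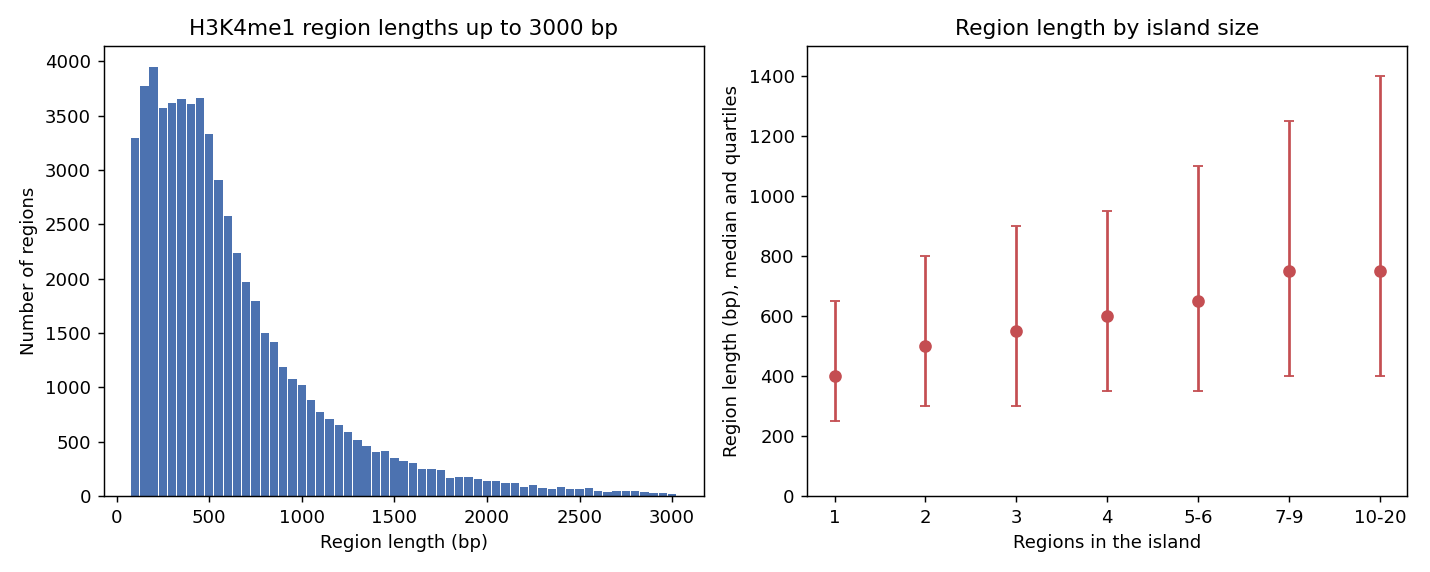
Left, number of H3K4me1 regions at each length up to 3000 bp in steps of 50 bp. Right, median region length (points) with quartiles (bars) by the number of regions in the island, from 400 bp for lone regions to 750 bp in islands of 10 to 20.

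The shortest regions were the weakest in the list. The authors' score, by which regions are ranked, had a median of 3.35 and ended at 3.00, and 9017 regions had a score under 3.1. Regions of 100 bp had a median log2 fold change of 3.26, as deposited. Those of over 500 bp up to 800 bp had 3.94, and the 177 over 4000 bp had 4.84. Across regions, length correlated with the log2 fold change (Spearman rho 0.82) and with the score (rho 0.85). Length, fold and score were read from the same signal, and the regions are not independent replicates. In 5 equal classes of rank, from the best to the last, the median length was 1050 bp, 700 bp, 500 bp, 350 bp and 150 bp.

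The 5 best-ranked regions and the 5 longest ones did not overlap, but the longest were also strong. The first rank went to chromosome 11, 116676400 to 116678199, a region of 1800 bp with a log2 fold change of 6.61. The second, at chromosome 14, 32475950 to 32477499, had 6.19 over 1550 bp and lay in an island of 11 regions. The third, at chromosome 1, 91016250 to 91021599, was 5350 bp long and stood alone, 2950 bp from its nearest neighbour. The fourth, at chromosome 8, 113339600 to 113340399, reached 6.07 over only 800 bp. The fifth, at chromosome 19, 10352500 to 10354199, belonged to an island of 10. The longest region of all, 9400 bp on chromosome 2, ranked 478 with a log2 fold change of 5.09, and 4 of the 5 longest were among the first 1000 ranks.

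Regions came in tight groups separated by long empty stretches. From 1 region to the next on the same chromosome the median distance, edge to edge, was 3850 bp, whereas the mean was 42210 bp. Among the upper 50% of regions by rank alone the median was 8250 bp. The quartiles were 650 bp and 21350 bp. Of the 59895 gaps, 41.1% were at most 2000 bp (exact Clopper-Pearson 95% interval 40.7% to 41.5%) and 32.1% at most 1000 bp. The interval covers counting error only. At the other end 7.36% exceeded 100 kb, and 381 gaps of over 1 Mb added up to 778 Mb.

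Short gaps had a preferred width. The most frequent gap was 450 bp, found 1588 times, against 899 gaps of 50 bp and 388 of 1000 bp. Gaps of 300 bp to 600 bp numbered 9444, which was 38.4% of those up to 2000 bp. The same share lay between 36.1% and 41.1% on every autosome, and the most frequent gap was between 350 bp and 500 bp on each of the 19. Absence of a region in a gap is not absence of the mark, since the list ends at a score of 3.00.

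The preferred width was much the same whatever the length of the flanking regions, and the shortest regions had a second group of gaps beside them. The most frequent gap was 400 bp or 450 bp in each of 5 classes of the shorter flank, from at most 200 bp to over 900 bp. Gaps beside a region of at most 200 bp had a second high point at the narrow end: 401 gaps of 50 bp, 204 of 250 bp and 438 of 450 bp. In this class 10.96% of gaps were at most 100 bp wide, against 5.37% to 6.90% in the other classes. Among the upper 50% of regions by rank the most frequent gap was 400 bp. Among the lower 50%, taken by themselves, it was 50 bp.

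**Figure D2:**
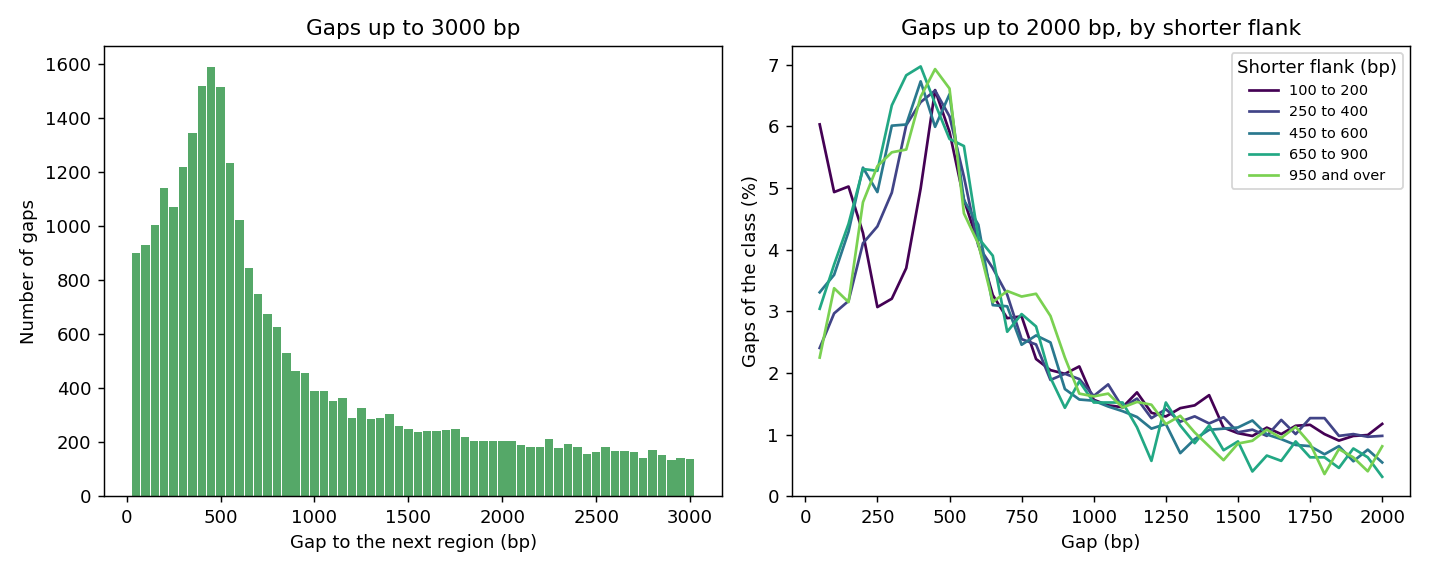
Left, number of gaps between neighbouring H3K4me1 regions at each width up to 3000 bp in steps of 50 bp, with the peak of 1588 at 450 bp. Right, share of the gaps up to 2000 bp at each width, in classes of the shorter of the flanking regions. Every class peaks at 400 bp or 450 bp, and the class of the shortest flanks has a second high point at 50 bp.

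The flanks of a short gap were only weakly alike in length. Over the 24595 gaps of at most 2000 bp the lengths on either side correlated with a Spearman rho of 0.19, against 0.07 over the 35300 wider gaps, where each region enters as the neighbour of 2 others. The longer flank was a median of 1.94 times the shorter one across short gaps and 2 times across wider gaps. In 49.8% of the short gaps 1 flank was at least 2 times as long as the other. Left and right flanks had the same median length of 550 bp.

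The summit of a region leaned toward a gap of up to 1000 bp, and not toward wider ones. The deposited summit was measured as the share of the region's length between it and the edge at the gap, where 50% is the middle. Beside gaps of 250 bp to 600 bp the median share was 41.6% in the left flank and 41.9% in the right, and 61.8% of summits lay nearer to the gap than to the far edge. The median was under 50% on all 19 autosomes, between 39.8% and 43.9%. With flanks of at least 600 bp it was 38.9% in the left flank and 39.0% in the right, with 67.7% of summits nearer to the gap. Beside gaps of over 1000 bp up to 2000 bp the summit was near the middle, at 50.4%, or 51.9% with flanks of at least 600 bp. Beside gaps of over 5000 bp up to 100 kb it lay at 54.3%, on the far side of the middle. Of the flanks of these wide gaps, 33.4% had a gap of at most 1000 bp at their other edge. In islands of exactly 2 regions, with no other region within 2000 bp, the median was 40.3% beside gaps of 250 bp to 600 bp and 39.3% beside gaps of 650 bp to 1000 bp.

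The position of the highest score, on a grid of 50 bp, followed the summit only in part. It lay at 49.8% of the length beside gaps of 250 bp to 600 bp over all flanks. Beside gaps of 50 bp to 200 bp it lay on the far side of the middle, at 54.0% over all flanks and 52.3% with flanks of at least 600 bp, where the summit over all flanks was at 45.5%. Beside gaps of 250 bp to 600 bp with flanks of at least 600 bp it lay at 46.3%, on the same side of the middle as the summit, and was under 50% on all 19 autosomes. Lone regions had their summit at 49.4% of the length from the low-coordinate edge. How the summit was defined is stated in neither the labels nor the header.

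**Figure D3:**
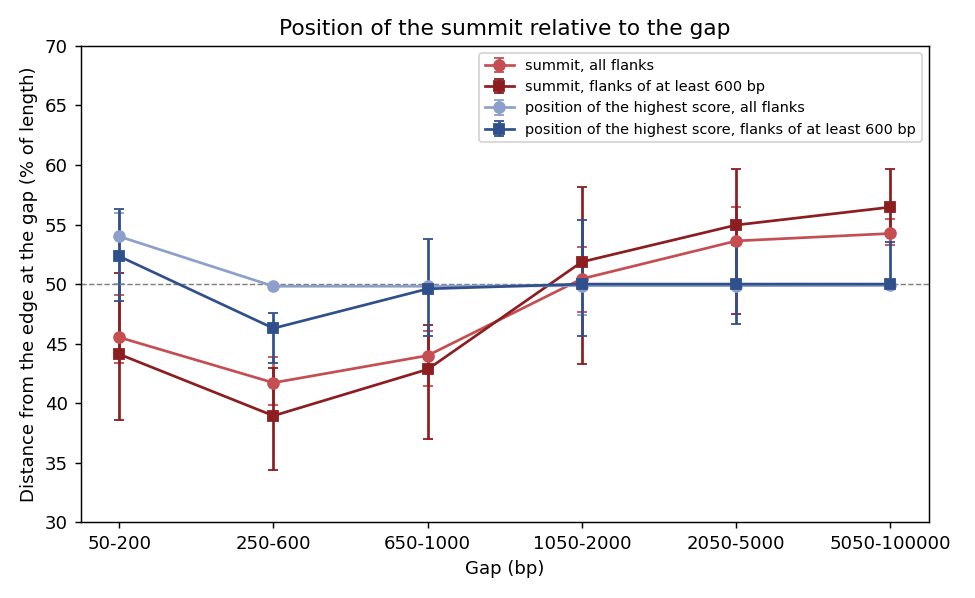
Median distance of the summit (red) and of the position of the highest score (blue) from the edge at the gap, as percent of the region's length, by width of the gap, for all flanks (light circles) and for flanks of at least 600 bp (dark squares). Left and right flanks are pooled, bars span the lowest and highest of the 19 autosomes, and the dashed line marks the middle of the region. Summits lie below 50% beside gaps up to 1000 bp and above it beside gaps over 2000 bp.

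Joined over gaps of at most 2000 bp, the regions formed 35328 islands. Of these 20498 were lone regions and 14830 had 2 or more, so that 65.8% of regions had a neighbour in their island (exact Clopper-Pearson 95% interval 65.4% to 66.2%). This interval treats regions as independent, although members of the same island share the outcome, so it is too narrow. Pairs were the most common form, with 9663 islands or 65.2% of those with 2 or more. Islands of 5 or more numbered 1073 and held 11.01% of all regions, and 48 islands had 10 or more. Islands of 2 or more spanned a median of 2200 bp, with quartiles of 1500 bp and 3550 bp. The share of an island's span that was inside a region had a median of 64.7%. On single autosomes 63.9% to 68.5% of regions lay in islands of 2 or more.

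Regions in larger islands had higher median lengths and log2 fold changes than lone regions, with no further difference in median length between islands of 7 to 9 and of 10 to 20. The median length was 400 bp for lone regions (quartiles 250 bp and 650 bp), 500 bp in pairs and 750 bp in islands of 10 to 20 (quartiles 400 bp and 1400 bp). The log2 fold change, which the joining rule did not use directly, had medians of 3.62, 3.75 and 3.98 in the same classes, with overlapping quartiles. It was read from the same signal as length and gaps, so it is not a separate check. Islands of 5 or more exceeded lone regions in both length (700 bp against 400 bp) and log2 fold change (3.91 against 3.62) on all 19 autosomes. Regions of at least 2000 bp made up 8.82% of regions in islands of 5 or more and 1.70% of lone regions. Within islands of 3 or more, inner regions had a median length of 650 bp and outer ones 550 bp. Even among lone regions 349 reached 2000 bp.

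The island with most regions was also the one with the longest span. It lay on chromosome 1, 78134200 to 78184299, with 20 regions over 50100 bp, of which 85.2% was inside a region. Its members ranged from 150 bp to 8100 bp with a median of 925 bp, and their log2 fold changes from 3.19 to 5.36. Its regions of 8100 bp and 7900 bp, at ranks 1022 and 85 and with 2 others between them, are both among the 5 longest of the list. Of its 20 members 12 were in the upper 50% of ranks, so that weak and strong regions lay side by side. Its last 4 members were regions of 2550 bp, 5100 bp, 150 bp and 250 bp, followed by an empty stretch of 10200 bp.

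The next islands differed in how strong and how full they were. On chromosome 5, 149323100 to 149359049 held 19 regions with a median log2 fold change of 3.77 and a best rank of 3008, and 68.7% of the span was covered. On chromosome 7, 29702050 to 29744349 held 18 regions with a median log2 fold change of 4.61, a best rank of 17 and a coverage of 85.7%. Of these 18 regions 10 were in the best of the 5 classes of rank, against 3 of 19 in the island on chromosome 5. The region at rank 17 was 4550 bp long with a log2 fold change of 5.72. The other members of at least 2000 bp were regions of 5400 bp, 3100 bp, 2000 bp, 2150 bp and 4850 bp before it, and of 2850 bp and 4250 bp after it. Shorter regions lay among them: the members of this island had a median of 1750 bp, and the shortest was 150 bp.

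Further islands with many regions spanned 20650 bp to 30300 bp. On chromosome 6 the stretch from 114814800 to 114845099 held 14 regions. So did 75264500 to 75289049 of chromosome 14, then 57779350 to 57801599 of chromosome 9 and 36708500 to 36729149 of chromosome 5. The last was the weakest of the 10 islands, with a best rank of 5765. Chromosome 2 held an island of 13 at 166487300 to 166512799 and one of 12 at 38368950 to 38397849, which contained a region of 7650 bp. An island of 12 lay on chromosome 3, 86946500 to 86974849. By span, the island of 10 regions at chromosome 19, 10346650 to 10377349, was the fourth, with 30700 bp, and it was the fullest of these at 86.3%. Its best rank was 5.

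Density differed nearly 2-fold between autosomes, and the X chromosome lay far below all of them. Over the span between the outermost coordinates in any deposited list, the autosomes together had 24.3 regions per Mb. Chromosome 11 was the densest with 36.1 regions per Mb and chromosome 19 the next with 32.0. Chromosomes 14 and 1 were the sparsest, both at 19.6. The ratio of highest to lowest was 1.85, or 1.64 without chromosome 11. In marked sequence the autosomes ran from 12.5 kb to 24.6 kb per Mb. The X chromosome had 1568 regions, 9.77 per Mb, which is 0.403 times the density of the autosomes. A further 43 regions lay on chromosome Y, with 3, or on unplaced sequence, with 40.

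Median region length and log2 fold change varied little between autosomes, and the median gap and the share of long regions varied more. The median length was 450 bp or 500 bp on each of the 19, the median log2 fold change 3.67 to 3.76, and the median gap 3050 bp to 4700 bp. The share of regions of at least 2000 bp went from 1.76% on chromosome 13 to 4.53% on chromosome 15. On the X chromosome the median length was 400 bp and the median gap 5150 bp, both outside the range of the autosomes, while its median log2 fold change of 3.71 was inside it. Regions under 300 bp made up 33.0% of those on the X chromosome and 24.1% of those on autosomes. On the X chromosome 20 regions reached 2000 bp, which was 1.28% of its regions, below the range of the autosomes, and 1.02% of all such regions. Among the first 1000 ranks the X chromosome held 20 regions, 2%, and of the whole list it held 2.62%.

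At the same fold change, the deposited Poisson p-value differed between chromosomes. For a given fold, a Poisson p becomes smaller as more tags are counted. Chromosome 6 had the smallest p-values and the X chromosome the largest. Of regions with a log2 fold change from 3.4 to below 3.5, the median -log10 p was 94.3 on chromosome 6 (quartiles 72.5 and 100, n = 314 regions). It was 77.1 on chromosome 18 (quartiles 58.7 and 100, n = 181) and 35.99 on the X chromosome (quartiles 25.4 and 49.8, n = 160). The other 17 autosomes lay between 60.0 and 67.1. The upper quartile of the X chromosome was thus below the median of every autosome.

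The difference held along chromosomes 6 and X, in every stretch with enough regions. Each region with a log2 fold change under 3.6, 39.1% of the list, was set against the median -log10 p of all regions in its class of fold change, 0.05 wide. The median of this ratio was 1.36 on chromosome 6, 1.16 on chromosome 18 and 0.569 on the X chromosome, against 0.941 to 1.05 on the other 17 autosomes. Each chromosome was divided into 10 equal stretches, of which those with at least 20 such regions were used. Chromosome 6 ran from 1.33 to 1.41 in all 10, and the X chromosome from 0.516 to 0.587 in 9. The stretches of chromosome 18 ran from 1.07 to 1.21, and those of the other 17 autosomes from 0.790 to 1.21, so that chromosome 18 stood apart as a whole but not in each stretch. The deposited values stop at 100, which 37.2% of these regions on chromosome 6 reached, so that the value of chromosome 6 is held down. The range of its stretches may be narrowed by the same limit.

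The same order was seen in the share of all regions at the ceiling of 100. It was 64.0% on chromosome 6, 46.9% on chromosome 18 and 5.74% on the X chromosome, against 34.1% to 41.5% on the other 17 autosomes. At matched length the X chromosome was low as well: among regions of over 400 bp up to 800 bp, 6.34% of 489 were at the ceiling, against 47.6% of 19464 on autosomes, although their median log2 fold change was 3.98 against 3.85. Low density, short regions and large p-values coincided on the X chromosome. Chromosome 6, with the smallest p-values, had 20.6 regions per Mb, below the median autosome at 23.5. Neither the tags behind each region nor the copy number of the chromosomes in these cells was measured here, so densities and p-values are not per copy, and the part of either in these differences was not tested.

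**Figure D4:**
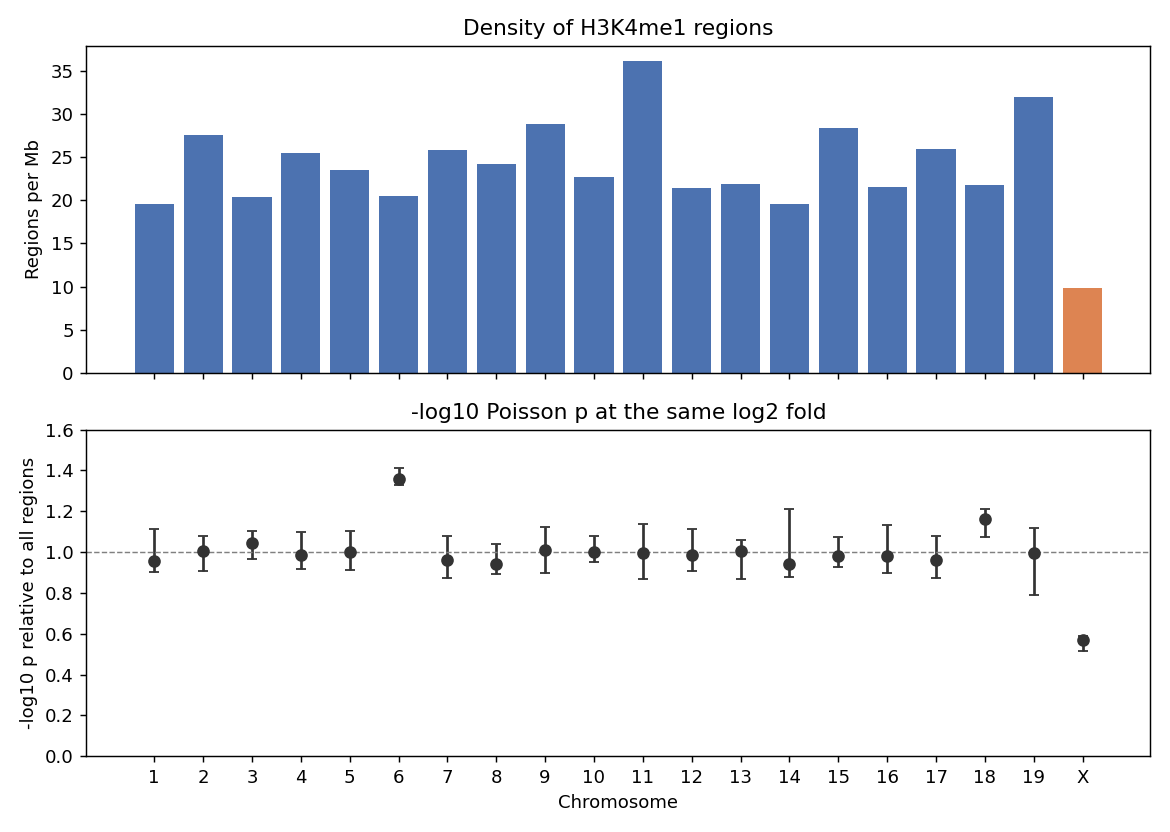
Top, H3K4me1 regions per Mb on each autosome (blue) and the X chromosome (orange). Bottom, median -log10 Poisson p relative to all regions of the same log2 fold change (points), for regions with a log2 fold change under 3.6, and a dashed line at 1. Bars span the lowest and highest of those of 10 equal stretches of each chromosome that held at least 20 such regions. Chromosome 6 lies at 1.36 and the X chromosome at 0.569, and the other autosomes except 18 within 0.941 to 1.05.

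Along the autosomes the regions were spread unevenly. In 2419 bins of 1 Mb the median was 16 regions (quartiles 3 and 38) and the highest count 123. The variance was 26.5 times the mean, where independent placement at 1 uniform rate would give 1. The densest 10% of bins, those with at least 60 regions, held 32.9% of regions, and the sparser 50% of bins held 9.51%. No region started in 341 bins, or 14.1% (exact Clopper-Pearson 95% interval 12.7% to 15.5%). This interval treats bins as independent, although counts in neighbouring bins correlated, so it is too narrow.

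Dense bins differed from sparse ones in the regions themselves as well as in their number. In bins with 1 to 5 regions the median length was 350 bp and the median log2 fold change 3.54, and 36.5% of regions were in islands of 2 or more. In bins with 81 to 123 regions these values were 550 bp, 3.81 and 73.8%. At each step between, both length and log2 fold change were higher or level. Regions of at least 2000 bp were 0.257% of the regions in the sparsest class and 5.31% in the densest.

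The densest bin, chromosome 8 from 129000000 to 129999999, held 123 regions in 59 islands. The bin before it had 10 regions and the bin after it 56. On chromosome 10 the bin from 80000000 to 80999999 had 122 regions, as had 103000000 to 103999999 of chromosome 12 and 149000000 to 149999999 of chromosome 4. The one on chromosome 12 was a narrow peak, with 17 and 16 regions in the bins beside it, whereas the one on chromosome 10 followed a bin with 103. With 119 regions came 79000000 to 79999999 of chromosome 3, a second bin of chromosome 8 from 124000000 to 124999999, and 5000000 to 5999999 of chromosome 19. The last had the shortest regions of the 10 densest bins, with a median of 450 bp, while chromosome 19, 10000000 to 10999999, with 117 regions, had the most marked sequence, 104 kb. The bins at chromosome 2, 32000000 to 32999999, and chromosome 7, 119000000 to 119999999, had 116 and 113. In all 10 the largest island had only 6 to 12 regions, so that their density came from 45 to 65 separate islands rather than from 1 large one.

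Density was patchy on the scale of a few megabases. Counts in neighbouring bins correlated with a Pearson r of 0.37 (n = 2400 pairs of bins), those 2 bins apart with 0.22 and those 10 bins apart with 0.04. These pairs share bins and are given as a description. For neighbouring bins r was above 0 on all 19 autosomes, from 0.10 on chromosome 13 to 0.50 on chromosome 8.

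The autosomes were denser toward the high-coordinate end. Mouse autosomes have their centromere at the low-coordinate end. The mean count per bin was 18.7 in the first of 10 equal stretches and 32.2 in the last, a ratio of 1.72. The last stretch exceeded the first on 16 of the 19 autosomes, but on chromosomes 2 (25.6 and 26.4) and 13 (20.4 and 20.5) the ends were almost level. The exceptions were chromosomes 17, 18 and 19, with 10.6 and 9.12 on chromosome 18. Chromosome 19 ran the other way, with 65.5 regions per bin in the first stretch and 19.8 in the last, and chromosome 17 had 30.6 and 12.7. The highest ratios of last to first were on chromosome 4, with 10 and 43.5, and chromosome 5, with 11.3 and 46.9. Single chromosomes were uneven in between: chromosome 15 had 0.7 regions per bin in stretch 2 and 60.2 in stretch 8. The last stretch was the densest only on chromosomes 5, 8 and 11. On chromosomes 1, 2, 9, 13, 14, 16, 17, 18 and 19 the densest was among the first 5.

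**Figure D5:**
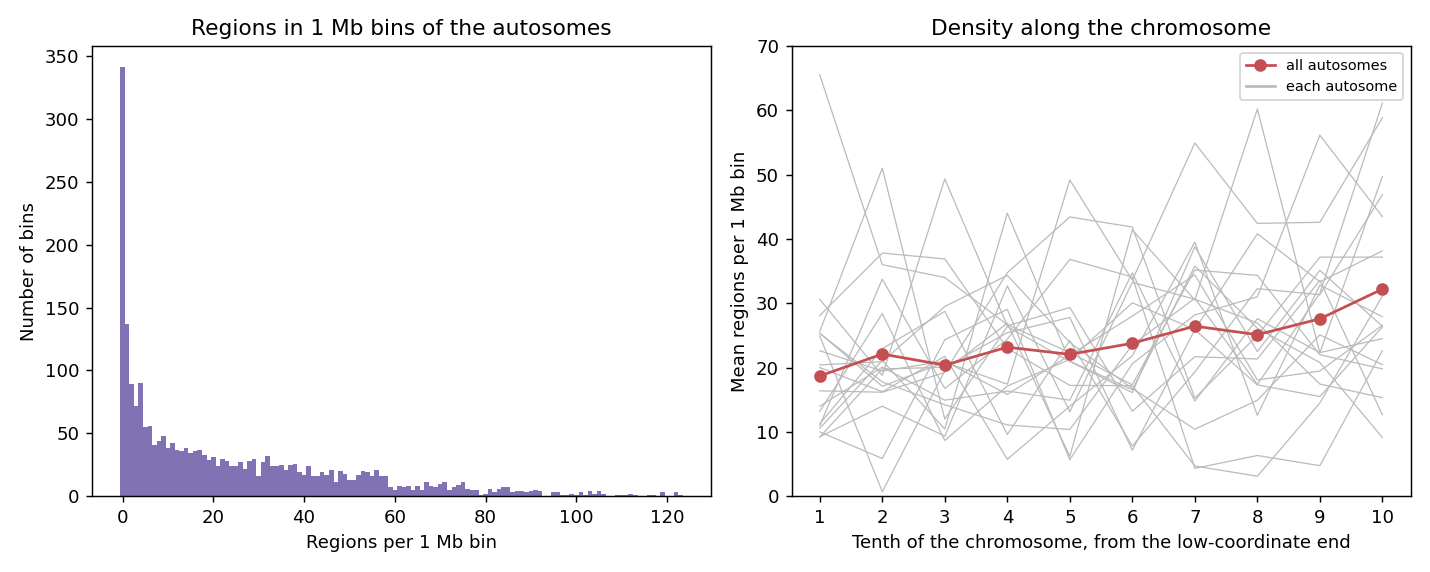
Left, number of autosomal 1 Mb bins by the number of H3K4me1 regions that start in them, with 341 empty bins. Right, mean regions per bin in each of 10 equal stretches from the low-coordinate end, for each autosome (grey) and all autosomes (red). The red line goes from 18.7 in the first stretch to 32.2 in the last, without rising at every step.

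Empty bins formed 213 runs, of which 24 had at least 3 bins and 8 at least 5. The longest gap between regions on an autosome was 7.65 Mb, at chromosome 7, 39058500 to 46705699. It was followed by 6.93 Mb at chromosome 14, 87899900 to 94832549, and 6.59 Mb at chromosome 1, 99955700 to 106548649, each covering 6 whole bins. Chromosome 7 had another of 6.41 Mb at 7073450 to 13483699. Runs of 5 empty bins also lay on chromosome 1 from 147000000, on chromosome 12 from 61000000, on chromosome 14 from 81000000 and on chromosome 16 from 67000000. The X chromosome had a stretch of 18.4 Mb without a region, at 112444950 to 130843699, and another of 10.7 Mb at 22836300 to 33491299.

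Most bins without an H3K4me1 region held the start of an EP300 peak, but a smaller share of them did than of the other bins. Of the 341 empty bins, 266 (78.0%) held the start of an EP300 peak in at least 1 of the 2 EP300 lists, against 97.1% of the other 2078 bins. The 3 longest empty runs differed in this: the run on chromosome 1 held 10 such peaks, counted over both lists, that on chromosome 14 held 14, and that on chromosome 7 from 40000000 to 45999999 held 0. The other 5 runs of at least 5 bins held 4 to 14. These counts are low: the EP300 lists hold 8451 and 10351 peaks in all, and the autosomes have 2419 bins. Spread evenly, the peaks would give each of these runs more than it held. How much of each stretch sequencing reads can be assigned to was not tested.

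The most isolated regions were short, 150 bp to 650 bp, and ranged widely in rank. The farthest from any neighbour lay on the X chromosome, 60848550 to 60848699, a region of 150 bp at rank 54341 with 2699950 bp to the nearest region. The next, at chromosome 8, 102428050 to 102428699, was 650 bp long at rank 25809, 2649300 bp from its neighbour. Those at chromosome 5, 69949200 to 69949599, and chromosome 16, 80493200 to 80493349, ranked 41235 and 52351. A pair of regions on chromosome 14, at 94832550 to 94832849 and 96917800 to 96918149, were each other's nearest neighbour across 2084950 bp. They ranked 20924 and 8451, with log2 fold changes of 3.98 and 4.35, yet had the largest p-values of these regions, with -log10 p of 24.6 and 20.0. None of the isolated regions named here was at the ceiling of 100, which 39.1% of all regions and 22.2% of lone regions reached. By length, the share was 3.01% over 100 bp up to 200 bp and 8.92% over 200 bp up to 300 bp. It was 24.7% over 300 bp up to 500 bp and 54.7% over 500 bp up to 800 bp.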

How the data were processed

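H3K4me1 regions of melan-a cells were read from 1 deposited list, which represents 2 replicates per the labels. Coordinates are as deposited, in mm9 per the submitters' processing notes. Peak caller, aligner, filters, depth, reference library and way of pooling were not given in the sources used here. Per the file headers, each region has a score (named maxT, by which the list is ranked), a maximum log2 fold change, a -log10 of the smallest Poisson p and a false discovery rate, deposited like a q-value as a fraction. The deposited score ends at 3.00, the -log10 values stop at 100, and 34012 regions share the lowest false discovery rate, 0.000118. All region boundaries follow 50 bp steps, so shorter differences in length or gap cannot be seen, and the list's threshold bears on lengths, gaps and counts.

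Gaps, islands (gaps of at most 2000 bp), densities and bins of 1 Mb by region start were computed with Python 3.11.15, pandas 2.3.3, numpy 2.4.6 and scipy 1.17.1, and the functions were tested on simulated data. Spans ran from the lowest to the highest coordinate in any deposited list. Regions of 1 list are not replicates, so values are described without tests. Named in the text are the 5 best-ranked, 5 longest and 5 most isolated regions, the 10 islands with most regions, the 5 with the longest span, the 10 densest bins and the 5 longest empty runs. Ties among islands were settled by span and among bins by covered bp, so other islands of 12 regions are not named, and tied empty runs and isolated regions were kept. Members and settings were chosen with earlier results of these data known, and the analyses of summits and of p-values at the same fold after seeing the values. The planned naming of genes was not run, since no mm9 annotation was used here.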

Additional observations from a re-analysis of the deposited data

How the results depend on the processing

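Of 43 alternatives, of which 13 were added after seeing the data, 35 moved the value and 8 did not. This was judged by the main value's 95% interval over regions where a median or share has one, and otherwise by equality to 2 decimals. These intervals treat regions as independent and are too narrow where neighbours are alike, so a value counted as moved may differ little. The interval was 1.62 to 1.75 for the length ratio. For relative -log10 p it was 1.13 to 1.19 on chromosome 18 and 0.545 to 0.585 on the X chromosome. No alternative turned a direction, but many could not. The median length, the median gap, the shares of regions and the ratio of densest to sparsest autosome have no direction to turn. In the upper 50% of regions by rank, the median length was 750 bp, the median gap 8250 bp, the share in islands 53.4%, the length ratio of islands of 5 or more over lone regions 1.57 (main value 1.75), flank rho 0.20, the ratio of densest to sparsest autosome 1.95, the share of regions in the densest 10% of bins 36.9%, the ratio of last to first stretch of the chromosome 1.95, the X chromosome at 0.368 times the autosomal density and the summit at 39.6%. With regions of at least 300 bp, the median gap was 5300 bp, the share in islands 61.0%, rho of length and log2 fold change 0.69 and the X chromosome at 0.355 times. Joining over at most 1000 bp gave 54.99% of regions in islands and a length ratio of 1.88 (1.875 before rounding), and over at most 5000 bp 77.3%. Gaps from midpoint to midpoint had a median of 4575 bp, and flank rho was 0.21 for gaps of at most 1000 bp. The autosome ratio was 1.82 for islands, 1.98 for covered bp and 1.64 without chromosome 11. The densest 10% of bins held 38.3% with bins of 500 kb, 28.2% with 2 Mb, 32.4% with the grid moved and 30.5% of islands. The ratio along the chromosome was 1.46 with 5 stretches and 1.63 for islands. With log2 fold changes under 3.4, the same score or the same length, the relative -log10 p was 1.404, 1.31 and 1.32 on chromosome 6, and on the X chromosome 0.593 for the first and 0.610 for the last. The summit lay at 38.9% with flanks of at least 600 bp (main value 41.7%). The position of the highest score, used in its place, lay at 49.8%, so that the lean toward the gap was nearly absent. The cause of these moves was not tested. No paired analysis was possible because the list gives no value per replicate. Depth is unknown, so a missing region is not a missing mark.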
